A study of Mus musculus with 34 samples.

Results

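A set of 10 little-studied genes makes up the group described here: 1700026L06Rik, 4833427G06Rik, 1700016K19Rik, 1700040L02Rik, 4932438H23Rik, LOC100503676, Smim5, Aaed1, Acaa2 and Arhgap6. They were taken by symbol from the 23951 genes of the expression tables, because they had come out lower than control in the Hdac1 cKO, 5XFAD and compound hippocampus, or among the largest falls in Hdac1 cKO. The members were thus selected on their FPKM differences from control in hippocampus, which are given as descriptions without a test. In all, 54 genes were lower by at least 1.5-fold with an unadjusted limma p under 0.05 in all 3 comparisons with control, and the 10 members are 10 of these.

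The study asked what the loss of the histone deacetylase HDAC1 does in the ageing brain and in a model of amyloid deposition. RNA was sequenced from the hippocampus of 20 mice. Controls were Hdac1f/f mice (n = 4) and Hdac1 cKO mice were Hdac1f/f, Nestin-Cre (n = 5), both labelled as 13 to 14 months old, whereas 5XFAD mice were Hdac1f/f, 5XFAD (n = 6) and compound mice were Hdac1f/f, Nestin-Cre, 5XFAD (n = 5), both labelled as 13 months old. All of these mice carried the floxed Hdac1 allele. The control and Hdac1 cKO libraries stand in a separate block of the sample list from the 5XFAD and compound libraries. Whether the blocks were prepared together is not stated. Any difference between them cannot be told apart from that of the 5XFAD transgenes. Nestin-Cre removes Hdac1 from the neural lineage, neurons and astrocytes included, and leaves it in cells of other origin such as microglia. The 5XFAD transgenes, which give amyloid deposition, are driven by the Thy1 promoter. A second experiment sorted GFAP+ nuclei, chiefly astrocyte nuclei, from frozen cortex, with 3 GFAP+ control and 4 GFAP+ Hdac1 cKO libraries used here. Values are FPKM, a fragment count scaled to the length of the transcript and the size of the library, and the fold changes are differences of mean log2(FPKM + 1), which understate the change of a low gene.

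Several members belong to motile cilia, the beating hair-like projections that in the brain are carried by ependymal cells lining the ventricles. The transcription factor FOXJ1 switches on the genes that build them, and RFX factors act with it by binding the X-box in ciliary promoters. The neighbouring choroid plexus, an epithelium that secretes cerebrospinal fluid, is known for its very high level of Ttr, which encodes the thyroid hormone carrier transthyretin. 1700026L06Rik is now named Spaca9, a microtubule-associated protein of sperm and cilia. 4833427G06Rik is now Hoatz, a protein needed for motile cilia and flagella, and 1700040L02Rik is now Cabcoco1, a calcium-binding coiled-coil protein associated with cilia. 1700016K19Rik is also known as Liat1, a ligand of the arginyltransferase ATE1. Smim5 encodes a small integral membrane protein, and Aaed1, now Prxl2c, a peroxiredoxin-like protein. Acaa2 is the mitochondrial 3-ketoacyl-CoA thiolase, which performs the last step of fatty acid beta-oxidation. Arhgap6 encodes a GTPase-activating protein. LOC100503676 is listed by RefSeq as the long non-coding RNA Gm38426.

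RefSeq promoter sequences of build GRCm38.p6, from 250 bases before the start to 50 after it, were matched to 7 of the 10 members, with 3 starts for Arhgap6. The consensus of the X-box, searched on both strands, occurred in 2 of these 7 members against 14.8% of the 32851 promoters in the table. The forkhead core TGTTTAC, on either strand, occurred in 0 of the 7 against 3.65% of promoters, and the GC box GGGCGG in 4 of the 7 against 35.7%. These letters were chosen with the results known, and a match describes the sequence and shows no binding. The 2 promoters with an X-box are printed with that of 1700026L06Rik, which had the most GC boxes among the 3 shown. Capitals mark the matches: the X-box begins at position 7 after the start of 1700040L02Rik, following a GC box at -39, and at position -62 in 4932438H23Rik, while 1700026L06Rik holds 4 GC boxes. No match overlapped another. The regions are chr10:68541826-68542125, chr16:91069103-91069402 and chr2:28699602-28699901, all on the minus strand.
1700040L02Rik: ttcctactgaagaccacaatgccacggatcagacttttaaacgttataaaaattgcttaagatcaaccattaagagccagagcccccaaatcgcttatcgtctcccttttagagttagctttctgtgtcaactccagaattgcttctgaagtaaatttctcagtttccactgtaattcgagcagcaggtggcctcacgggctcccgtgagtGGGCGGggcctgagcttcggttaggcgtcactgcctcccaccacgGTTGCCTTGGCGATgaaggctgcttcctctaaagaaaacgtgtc
4932438H23Rik: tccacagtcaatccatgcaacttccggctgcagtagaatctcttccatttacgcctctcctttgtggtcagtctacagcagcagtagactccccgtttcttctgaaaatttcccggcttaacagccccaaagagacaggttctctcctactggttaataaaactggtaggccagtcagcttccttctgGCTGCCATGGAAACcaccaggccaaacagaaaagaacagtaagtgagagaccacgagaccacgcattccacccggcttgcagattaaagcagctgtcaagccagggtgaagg
1700026L06Rik: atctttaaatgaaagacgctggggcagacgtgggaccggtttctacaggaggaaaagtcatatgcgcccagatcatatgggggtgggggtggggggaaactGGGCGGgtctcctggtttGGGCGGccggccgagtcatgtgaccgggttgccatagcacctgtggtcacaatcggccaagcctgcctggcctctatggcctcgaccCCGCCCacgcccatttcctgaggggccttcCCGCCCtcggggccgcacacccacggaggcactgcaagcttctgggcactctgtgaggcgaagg

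The members are spread over the genome. In mm9, the build of the expression files, GENCODE places 1700026L06Rik at chr2:28547600-28555247 on the minus strand, 4833427G06Rik at chr9:50889220-50910183 on the minus strand and 1700040L02Rik at chr10:67893701-68004644 on the minus strand. On chromosome 11 lie 1700016K19Rik at chr11:75813414-75817071 and Smim5, there called 2210020M01Rik, at chr11:115761280-115767583, both on the plus strand. Aaed1, there called 1110018J18Rik, is at chr13:64391124-64414018 on the minus strand and 4932438H23Rik at chr16:91054180-91095367 on the minus strand. Acaa2 is at chr18:74938851-74965861 and Arhgap6 at chrX:165233031-165742367, both on the plus strand. Smim5 overlaps Recql5 on the opposite strand, which averaged 2.32 FPKM in hippocampus, and Arhgap6 overlaps Hccs, which averaged 8.63 FPKM. Reads of these overlapping pairs cannot be told apart where counting ignores the strand.

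In hippocampus the targeted and transgenic loci followed the labels. Hdac1 ranged from 5.91 to 10.7 FPKM in control and from 2.36 to 3.03 FPKM in Hdac1 cKO mice, and from 6.10 to 9.64 FPKM in 5XFAD and 1.15 to 2.52 FPKM in compound mice. Thy1 was at 303 to 388 FPKM in mice without and 1563 to 2357 FPKM in mice with the 5XFAD transgenes. In GFAP+ nuclei Gfap was at 53.9 to 93.5 FPKM and the neuronal marker Rbfox3 at 15.4 to 16.9 FPKM. In hippocampus Gfap was at 23.4 to 176 FPKM and Rbfox3 at 136 to 186 FPKM. The library chemistry differed between the experiments, so these levels are given side by side and not compared. Relative to control mouse 1, the depth of the hippocampal libraries estimated from the steps in low FPKM values was 0.754 to 2.35. Ttr set some libraries apart from their group. Control mouse 1 had 576 FPKM of Ttr while the other 3 controls had 12903 to 20146, Hdac1 cKO mouse 5 had 1608 while the other 4 had 56.5 to 106, and compound mouse 1 had 13910 while the other 4 had 58.9 to 265. In 5XFAD mice Ttr ran from 53.8 to 7892 FPKM.

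In the hippocampus the members were highest on average in control, all 10 of them. The mean was lowest in Hdac1 cKO mice for 8 members and in compound mice for 1700016K19Rik and Aaed1. The order control, 5XFAD, compound, Hdac1 cKO held for 6 members. Their median log2 fold change was -1.22 in Hdac1 cKO (from -2.70 to -0.87), -0.91 in 5XFAD (from -1.30 to -0.59) and -1.25 in compound mice (from -2.25 to -0.76), beside a median over all genes tested of between -0.01 and 0 in each. All 10 met the 1.5-fold and unadjusted p thresholds in each comparison, from which nothing is read because these values entered their choice, where 2.87% of all genes tested were called lower in Hdac1 cKO, 1.23% in 5XFAD and 2.02% in compound mice. The smallest of the 30 differences was that of 1700040L02Rik in 5XFAD mice, -0.59, just past the threshold. Leaving out 1 mouse kept all 10 past both thresholds in Hdac1 cKO, but as few as 6 in 5XFAD and 7 in compound mice. In 5XFAD, leaving out each of the 10 mice in turn took the difference short of 1.5-fold in 6 cases for 1700040L02Rik (control mice 2, 3 and 4 and 5XFAD mice 1, 4 and 5, from -0.57 to -0.49), in 3 for 1700016K19Rik (control mouse 3 and 5XFAD mice 4 and 6, from -0.58 to -0.48), in 2 for Arhgap6 (control mouse 4 and 5XFAD mouse 1, -0.52 and -0.55) and in 1 for Acaa2 (control mouse 2, -0.54). The p threshold alone was missed in 6 cases for Smim5, in 5 for 4833427G06Rik and in 2 for 1700026L06Rik. In compound mice, leaving out each of the 9 mice in turn missed the p threshold alone. This happened in 6 cases each for 1700040L02Rik and LOC100503676 and in 5 for 1700026L06Rik. The same 4 control mice stand in all 3 comparisons. In whole hippocampus, fewer cells of a type and less RNA per cell cannot be told apart.

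**Figure D1:**
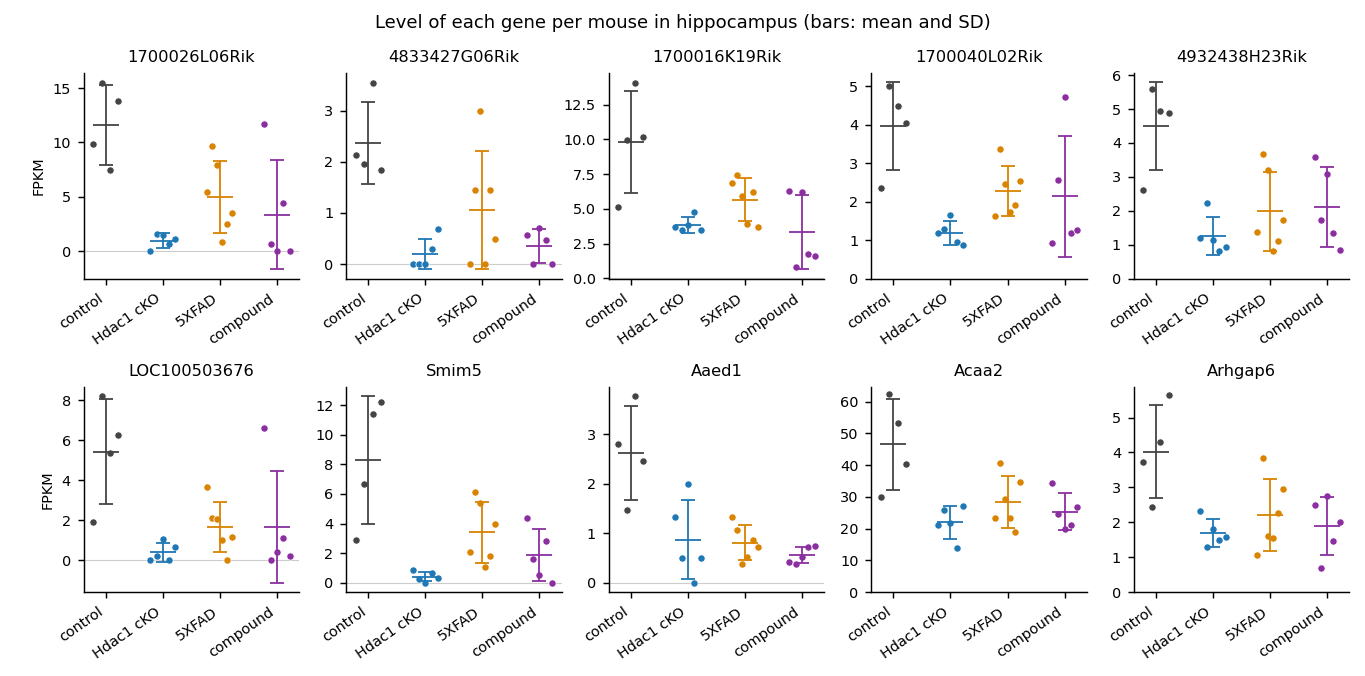
FPKM of the 10 genes in hippocampus, 1 point per mouse (control n = 4, Hdac1 cKO n = 5, 5XFAD n = 6, compound n = 5), with the mean (long bar) and SD; each panel has its own linear axis. The Hdac1 cKO points lie below every control point in 9 panels, the exception being Aaed1. The compound points do so in 2 panels, 4833427G06Rik and Aaed1, and reach the control range in the others.

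On the log2(FPKM + 1) scale the largest difference in Hdac1 cKO mice was that of 1700026L06Rik, the Spaca9 gene. By the log2 ratio of mean FPKM those of Smim5 (-4.30), LOC100503676 (-3.82) and 4833427G06Rik (-3.61) exceeded the -3.57 of 1700026L06Rik. Its level was 9.83, 15.5, 7.44 and 13.8 FPKM in the 4 control mice, and 0, 1.63, 1.46, 0.702 and 1.11 FPKM in the 5 Hdac1 cKO mice. Every Hdac1 cKO mouse was far below every control. In 5XFAD mice it was at 5.45, 9.66, 7.90, 0.853, 2.47 and 3.55 FPKM, and in compound mice at 11.7, 0.634, 0, 4.39 and 0 FPKM. Both groups reached into the control range, 5XFAD with mice 2 and 3 and compound with mouse 1. The log2 fold change from control was -2.70 (standard error 0.29) in Hdac1 cKO, -1.26 (standard error 0.47) in 5XFAD and -2.25 (standard error 0.80) in compound mice.

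Among the other cilia-associated members, 4833427G06Rik, the Hoatz gene, was low throughout. It was at 2.14, 1.96, 3.55 and 1.83 FPKM in control, and was listed at 0 in 3 Hdac1 cKO mice and at 0.287 and 0.684 FPKM in the other 2. In 5XFAD mice it was at 0, 1.44, 2.99, 0, 1.45 and 0.484 FPKM, and in compound mice at 0.562, 0, 0.712, 0.479 and 0 FPKM. No Hdac1 cKO or compound mouse reached the lowest control, whereas 5XFAD mouse 3 lay inside the control range. 1700040L02Rik, the Cabcoco1 gene, was at 2.37, 5.00, 4.49 and 4.04 FPKM in control and 1.18, 1.29, 1.65, 0.952 and 0.882 FPKM in Hdac1 cKO mice. It was at 1.64, 3.38, 2.47, 1.74, 1.92 and 2.54 FPKM in 5XFAD and 0.933, 2.58, 4.72, 1.19 and 1.28 FPKM in compound mice. Here compound mouse 3, not mouse 1, was the high one, and 3 of 6 5XFAD mice were below all controls. The log2 fold changes of 4833427G06Rik were -1.50 (standard error 0.22), -0.87 (0.36) and -1.33 (0.23) in Hdac1 cKO, 5XFAD and compound mice, and those of 1700040L02Rik were -1.16 (0.19), -0.59 (0.20) and -0.76 (0.31).

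1700016K19Rik, the Liat1 gene, was at 5.13, 9.94, 14.1 and 10.2 FPKM in control and within the narrow span of 3.69, 3.46, 3.82, 4.80 and 3.45 FPKM in Hdac1 cKO mice. In 5XFAD mice the values were 6.87, 7.45, 5.95, 3.89, 6.22 and 3.66 FPKM. Compound mice split into mice 1 and 3, at 6.27 and 6.24 FPKM, and mice 2, 4 and 5, at 0.826, 1.72 and 1.58 FPKM. The 3 low compound mice were below every Hdac1 cKO and 5XFAD mouse. Between compound and 5XFAD mice the difference of 1700016K19Rik was -0.82 (standard error 0.35), the only member past the fold and p thresholds in that comparison, where 0.593% of all genes tested were called lower. This call was lost on leaving out any of 7 of the 11 mice, namely 5XFAD mice 1, 2, 3 and 5 and compound mice 2, 4 and 5, with a value of -0.57 without compound mouse 2. Without compound mouse 1 the members past both thresholds were 4, with 1700026L06Rik, LOC100503676 and Smim5 added, where 1.04% of all genes tested were called lower. Both groups entered the choice of the members through their differences from control. The calls between compound and 5XFAD mice are thus descriptions, from which nothing is read. 4932438H23Rik was at 2.61, 5.58, 4.94 and 4.87 FPKM in control, 1.19, 2.22, 1.15, 0.809 and 0.934 FPKM in Hdac1 cKO, 1.37, 3.68, 3.19, 0.805, 1.11 and 1.74 FPKM in 5XFAD and 3.60, 1.73, 3.10, 1.35 and 0.845 FPKM in compound mice. Its compound and 5XFAD values covered the same span, a difference of 0.07 (standard error 0.29).

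The non-coding RNA LOC100503676 and the membrane protein gene Smim5 were near 0 in the Hdac1 cKO libraries. LOC100503676 was at 1.90, 8.22, 5.38 and 6.24 FPKM in control and at 0, 0.197, 1.06, 0 and 0.671 FPKM in Hdac1 cKO mice. It was at 3.68, 2.12, 2.05, 1.03, 0 and 1.14 FPKM in 5XFAD mice, and at 6.63, 0, 0.419, 1.13 and 0.194 FPKM in compound mice. Control mouse 1 was lowest of its group and compound mouse 1 highest, the same ends that these 2 mice held for Ttr. Smim5 was at 2.91, 6.65, 11.4 and 12.2 FPKM in control and 0.830, 0.259, 0, 0.669 and 0.354 FPKM in Hdac1 cKO mice. It was at 2.08, 6.14, 5.41, 1.08, 1.80 and 3.95 FPKM in 5XFAD and 4.37, 1.61, 0.552, 2.79 and 0 FPKM in compound mice. Mouse 1 again had the lowest control and the highest compound value. The log2 fold change of LOC100503676 was -2.16 (standard error 0.33), -1.30 (0.42) and -1.61 (0.60) in the 3 comparisons, and that of Smim5 was -2.59 (0.33), -1.07 (0.43) and -1.79 (0.53).

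Aaed1, the peroxiredoxin-like gene, had another order of groups. It was at 2.79, 1.46, 3.77 and 2.45 FPKM in control, and at 1.33, 0.497, 2.00, 0 and 0.509 FPKM in Hdac1 cKO mice. The values were 1.33, 1.07, 0.370, 0.519, 0.860 and 0.720 FPKM in 5XFAD and 0.418, 0.386, 0.529, 0.712 and 0.736 FPKM in compound mice. Every 5XFAD and compound mouse was below the lowest control, and only Hdac1 cKO mouse 3 was above it. The log2 fold change was -1.02 (standard error 0.30), -0.98 (0.21) and -1.18 (0.21) in Hdac1 cKO, 5XFAD and compound mice.

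Acaa2, the thiolase gene, was also highest in control. It was at 30.0, 62.3, 53.3 and 40.3 FPKM in control, 21.2, 25.9, 21.8, 13.8 and 27.0 FPKM in Hdac1 cKO, 23.2, 40.6, 29.4, 23.2, 18.8 and 34.6 FPKM in 5XFAD and 34.5, 24.5, 19.8, 21.1 and 26.9 FPKM in compound mice. Arhgap6 was at 3.74, 2.43, 4.29 and 5.64 FPKM in control, 2.33, 1.29, 1.82, 1.49 and 1.59 FPKM in Hdac1 cKO, 1.06, 3.84, 1.62, 1.55, 2.27 and 2.95 FPKM in 5XFAD and 2.50, 0.693, 2.75, 1.46 and 2.01 FPKM in compound mice. For both genes the Hdac1 cKO mice lay below all controls, and the 5XFAD and compound groups overlapped them. The log2 fold change was -1.03 (standard error 0.23), -0.69 (0.23) and -0.82 (0.21) for Acaa2 and -0.87 (0.20), -0.66 (0.25) and -0.82 (0.26) for Arhgap6.

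Counted over the members, all Hdac1 cKO mice were below all controls for 9 genes, where 2.15% of all genes tested showed this. The same held for 1 gene in 5XFAD mice (Aaed1, background 0.986%) and for 2 in compound mice (4833427G06Rik and Aaed1, background 1.52%). Nothing is read from these counts, because the differences from control entered the choice of the members. Groups next to each other in a member's order of means overlapped in all 30 such pairs. The share over all genes is not given for this, so nothing is read from it. The spans of compound and 5XFAD mice overlapped for all 10 members, as for nearly all genes tested, 0.216% of which lay wholly lower in compound mice, and their difference was between -0.99 and 0.07 with a median of -0.26.

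**Figure D2:**
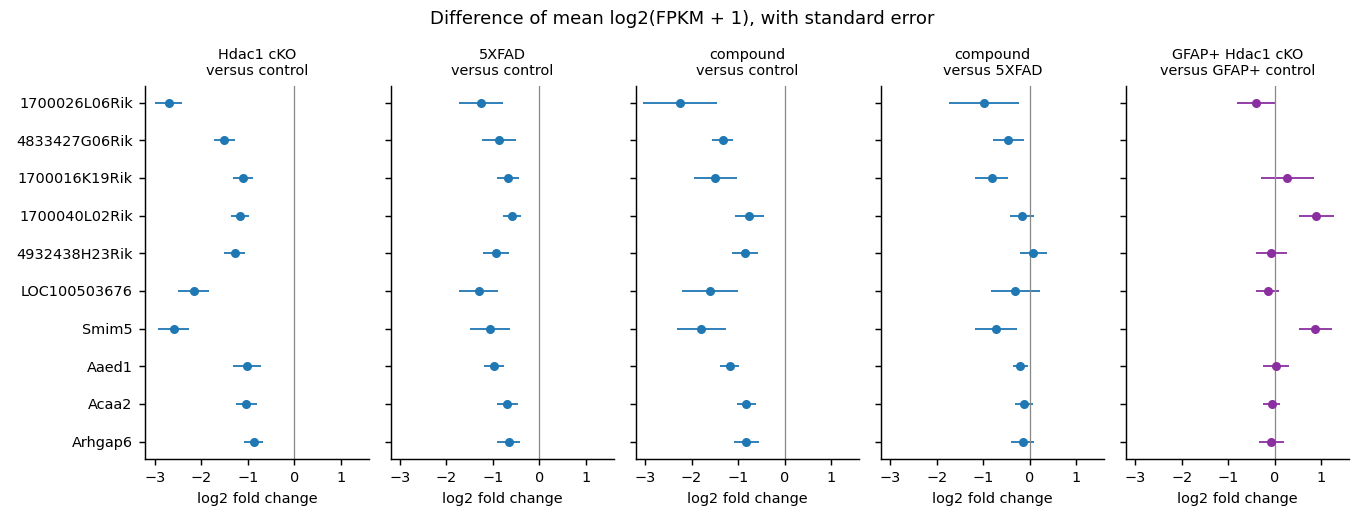
Difference of mean log2(FPKM + 1) for each gene with its standard error, in 5 comparisons; points left of the grey line are lower in the first-named group. All 30 differences from control lie below 0, compound and 5XFAD mice differ by a median of -0.26, and in GFAP+ nuclei the 9 genes tested scatter from -0.40 to 0.89 (4833427G06Rik was below the filter).

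Few fragments stand behind several of these values. For 8 members and for Foxj1 the hippocampal FPKM values were whole multiples of a step particular to the gene once scaled by relative depth, within 0.15 of a step, and if a step is 1 fragment they give estimated fragments per mouse. Smim5 had 114 fragments in the 4 controls together and 9 in the 5 Hdac1 cKO mice, 0 to 3 in each, with 78 in 5XFAD and 30 in compound mice. 1700026L06Rik had 110, 14, 71 and 33 and LOC100503676 had 110, 12, 51 and 30 in control, Hdac1 cKO, 5XFAD and compound mice. The thinnest were 4833427G06Rik, with 24, 4, 17 and 4, and Aaed1, with 34, 19, 21 and 10. For 1700040L02Rik the sums were 81, 36, 76 and 40. Levels of 4833427G06Rik and Aaed1 in single mice thus rest on at most 10 fragments, and a value listed at 0 means not detected at this depth. The estimates cover counting only and could not be made for Acaa2 or Arhgap6.

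GFAP+ nuclei were not used to choose the members, so the members were tested there. No member was called lower, and the groups overlapped for all 10, where 2.75% of all genes tested lay wholly lower in GFAP+ Hdac1 cKO nuclei. Of the 9 members past the filter on low values, 0 were called lower, where 1.34% of all genes tested were, and 2 were called higher, where 1.24% were. The filter, on the mean over all 7 libraries, bears on this count, since 1700040L02Rik passed it through the GFAP+ Hdac1 cKO libraries, where it was high, and 4833427G06Rik, at 0 in all of those, was left out. Without the filter 0 of the 10 were lower and the same 2 higher. 1700040L02Rik was at 0.706, 0.109 and 0 FPKM in the GFAP+ control and 0.532, 0.613, 2.34 and 2.30 FPKM in the GFAP+ Hdac1 cKO libraries. Its log2 fold change was 0.89 (standard error 0.37, adjusted p = 0.984 from limma), with the groups overlapping. Smim5 was at 0.661, 1.07 and 2.28 FPKM in GFAP+ control and 4.19, 1.38, 3.42 and 4.16 FPKM in GFAP+ Hdac1 cKO nuclei, a difference of 0.87 on the log2 scale (standard error 0.35; limma, adjusted p = 0.984). Neither passed the adjustment over all genes, and leaving out each of the 7 libraries in turn lost the call by fold and unadjusted p in 4 cases for 1700040L02Rik (GFAP+ control libraries 3 and 4, GFAP+ Hdac1 cKO libraries 3 and 4) and in 5 for Smim5 (GFAP+ control libraries 1 and 3, GFAP+ Hdac1 cKO libraries 1, 3 and 4). By an adjusted p under 0.05, limma called 0 genes lower and 2 higher among 15070, where 341 were lower and 368 higher at an unadjusted p under 0.05.

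4932438H23Rik and Aaed1 were abundant in these nuclei. 4932438H23Rik was at 16.4, 23.2 and 44.3 FPKM in GFAP+ control and 16.4, 24.8, 25.6 and 33.5 FPKM in GFAP+ Hdac1 cKO nuclei, a difference of -0.08 on the log2 scale (standard error 0.33; limma, adjusted p = 0.997). Aaed1 was at 17.0, 9.07 and 17.7 FPKM and at 16.6, 9.24, 18.5 and 14.5 FPKM, a difference of 0.03 (standard error 0.28; limma, adjusted p = 0.999). In hippocampus 4932438H23Rik was at most 5.58 FPKM and Aaed1 at most 3.77 FPKM, but the 2 experiments used different library chemistry (full-length cDNA from nuclei against 3′ ends from tissue), so the levels are given side by side and not compared. Acaa2 was at 32.9, 31.3 and 21.3 FPKM in control and 29.3, 26.6, 29.0 and 22.2 FPKM in Hdac1 cKO nuclei, a difference of -0.07 (standard error 0.18; limma, adjusted p = 0.996).

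Of the cilia-associated members, 1700026L06Rik and 4833427G06Rik were listed at 0 in several nuclear libraries. 1700026L06Rik was at 1.04, 1.20 and 0 FPKM in GFAP+ control and was listed at 0 in 3 GFAP+ Hdac1 cKO libraries and at 1.46 FPKM in the fourth (log2 fold change -0.40, standard error 0.41, adjusted p = 0.984 from limma). 4833427G06Rik was at 1.07, 0 and 0.490 FPKM in GFAP+ control and was listed at 0 in all 4 GFAP+ Hdac1 cKO libraries, below the filter, and was not tested. For 1700016K19Rik, LOC100503676 and Arhgap6 the differences were 0.26, -0.16 and -0.08 with adjusted p between 0.989 and 0.996 from limma. Hdac1 itself was at 14.5, 9.91 and 22.3 FPKM in GFAP+ control and 9.71, 11.5, 5.80 and 8.73 FPKM in GFAP+ Hdac1 cKO nuclei, a log2 fold change of -0.70 (adjusted p = 0.984 from limma). The groups overlapped for Hdac1, with 1 GFAP+ Hdac1 cKO library at 11.5 above 1 GFAP+ control library at 9.91 FPKM, so that the targeted gene does not separate these groups. Foxj1 was at 0.103 to 0.615 FPKM in GFAP+ control and 0.204 to 1.20 FPKM in GFAP+ Hdac1 cKO nuclei, below the filter. Ttr was at 6.40 to 131 FPKM in GFAP+ control and 95.9 to 246 FPKM in GFAP+ Hdac1 cKO nuclei, and 3 of 15 choroid plexus genes and 3 of 28 ependymal cilia genes tested were called higher there with 0 lower. The part of these levels in the values of the members was not tested.

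**Figure D3:**
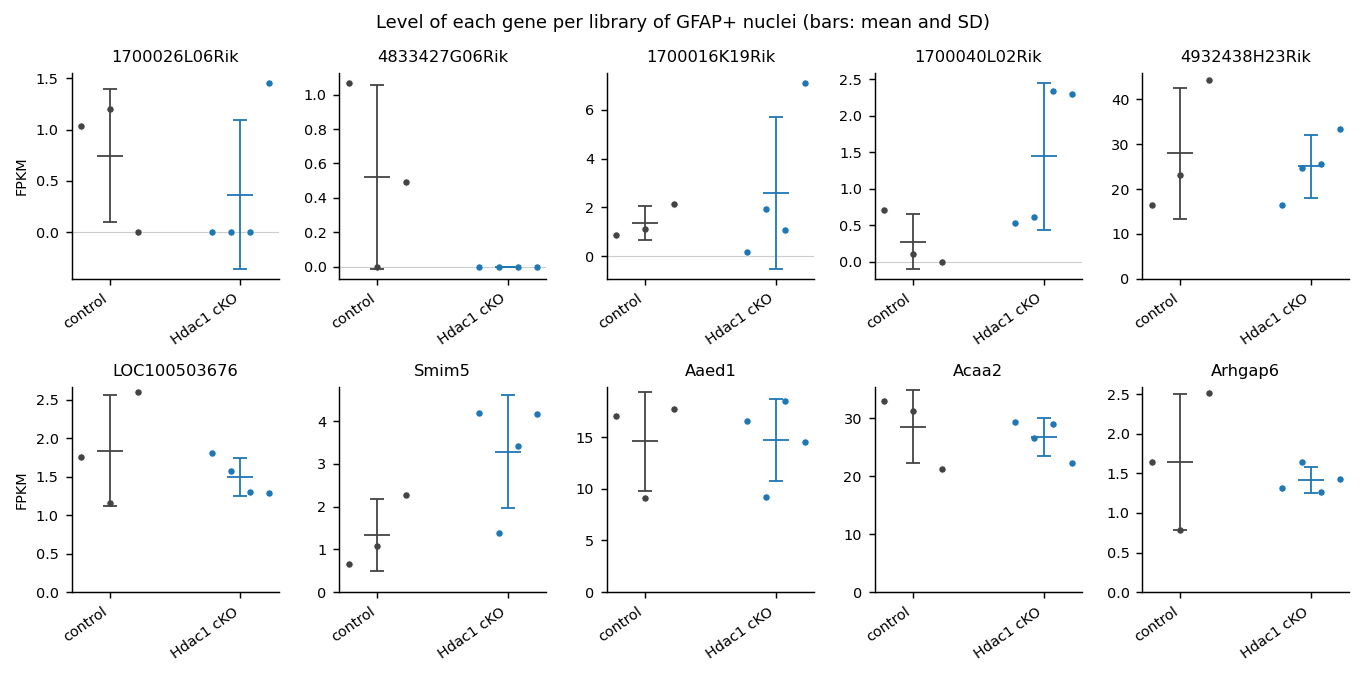
FPKM of the 10 genes in GFAP+ nuclei, 1 point per library (control n = 3, Hdac1 cKO n = 4), with the mean (long bar) and SD; each panel has its own linear axis. The groups overlap in all 10 panels, including those of 1700040L02Rik and Smim5, whose means were higher in Hdac1 cKO.

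Foxj1 was compared with the members as the switch of the motile cilia program. It was at 0.387, 1.06, 2.32 and 2.20 FPKM in control and 0.258, 0.402, 0.433, 0.415 and 1.10 FPKM in Hdac1 cKO mice, a difference of -0.65 on the log2 scale (standard error 0.27; limma, adjusted p = 0.359). In 5XFAD mice it was at 0.252 to 1.93 FPKM, a difference of -0.10 (standard error 0.28; limma, adjusted p = 0.928), and in compound mice at 0.318 to 1.67 FPKM, a difference of -0.22 (standard error 0.30; limma, adjusted p = 0.855). By the fold and unadjusted p thresholds used for the members Foxj1 was called lower in Hdac1 cKO and in neither other group, and by the adjusted p from limma it passed in none. By limma Ttr differed from control by -5.57 (standard error 1.44, adjusted p = 0.214) in Hdac1 cKO, -2.35 (1.84, adjusted p = 0.690) in 5XFAD and -4.35 (1.87, adjusted p = 0.478) in compound mice. On the log2(FPKM + 1) scale its differences were larger than those of any member, and so were its standard errors. By the ratio of mean FPKM this did not hold in compound mice. There the mean of Ttr was 2908 against 12777 FPKM in control, and that of 4833427G06Rik 0.351 against 2.37 FPKM.

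Markers of choroid plexus and ependyma were counted in the same comparisons. Of the choroid plexus list, all 19 genes tested were called lower in Hdac1 cKO mice, 0 in 5XFAD and 12 in compound mice. Without control mouse 1 the counts were 19, 16 and 19, and without compound mouse 1 the last was 19. No choroid plexus gene passed an adjusted p under 0.05 with all mice, and without control mouse 1 all 19 did in Hdac1 cKO. The largest falls were those of Ttr and of Kcnj13, a potassium channel of this epithelium, at 83.9 ± 58.3 FPKM in control (SD, n = 4) against 1.70 ± 3.57 FPKM (SD, n = 5) after Hdac1 deletion. The summed level of the 20 listed genes was 692 FPKM in control mouse 1 and 14014 to 21799 in the other controls. It was 114 to 1757 in Hdac1 cKO, 117 to 8493 in 5XFAD and 122 to 14698 in compound mice. Up to 6 of the 20 were listed at 0 in a mouse. Ttr alone gave 20146 of the 21799 FPKM in control mouse 3 and 13910 of the 14698 in compound mouse 1. In 5XFAD mouse 5 it gave 53.8 of the 117. Of the ependymal cilia list, 17 of 34 genes tested were called lower in Hdac1 cKO, 8 of 33 in 5XFAD and 11 of 33 in compound mice, and 6 were lower in all 3 comparisons. Without control mouse 1 these counts were 21 of 33, 16 of 33 and 16 of 33. Their summed level was 318 to 640 FPKM in control, 227 to 279 in Hdac1 cKO, 250 to 395 in 5XFAD and 248 to 428 in compound mice. Dynlrb2, a dynein light chain, was at 60.1 ± 28.3 FPKM in control (SD, n = 4) against 14.8 ± 3.45 FPKM (SD, n = 5) after Hdac1 deletion (adjusted p = 0.0780 from limma), and Mlf1, found in ciliated cells, at 8.51 ± 3.60 and 1.63 ± 0.839 FPKM (adjusted p = 0.0315 from limma). The part of either cell type in the members' values was not tested. Neurons, astrocytes, microglia and oligodendrocytes had 0 of 10 markers lower in any comparison with control, and 7 of 10 microglial markers were higher in both groups with the transgenes. Of the astrocyte markers, Gfap was higher in 5XFAD (1.90, adjusted p = 1.86e-06 from limma) and in compound mice (2.10, adjusted p = 2.24e-04 from limma), as was Aqp4 in the latter (1.23, adjusted p = 0.00317 from limma). Of 8 genes of meningeal fibroblasts tested, 3 were lower in Hdac1 cKO, 0 in 5XFAD and 2 in compound mice, and of 10 endothelial markers 1 was lower, in compound mice.

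The mice that Ttr set apart were looked at for the members. Control mouse 1 was the lowest control for 6 members (1700016K19Rik, 1700040L02Rik, 4932438H23Rik, LOC100503676, Smim5 and Acaa2), and compound mouse 1 was the highest compound mouse for 6 (1700026L06Rik, 1700016K19Rik, 4932438H23Rik, LOC100503676, Smim5 and Acaa2). Hdac1 cKO mouse 5, the highest of its group in Ttr, was highest for 2 members, 4833427G06Rik and Acaa2. The shares of all genes with these mice at the same ends are not given, so nothing is read from these counts. Leaving out control mouse 1 gave a median member difference of -1.41 in Hdac1 cKO, -0.94 in 5XFAD and -1.25 in compound mice, and leaving out compound mouse 1 gave -1.27 in the latter. All 10 stayed below 0 in each. For 1700026L06Rik in compound mice the value without mouse 1 was -2.83, and for LOC100503676 it was -2.10.

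Likeness to Ttr among mice of the same group was not used to choose the members, though the spread within groups enters the p thresholds. In this variation the members differed in how closely they followed Ttr. With group means removed, Pearson's r with Ttr over the 20 mice was 0.82 for LOC100503676, 0.75 for Acaa2, 0.74 for Smim5, 0.68 for 1700026L06Rik and 0.65 for 4932438H23Rik. The corresponding Spearman's rank correlation was 0.78, 0.75, 0.75, 0.63 and 0.66. By a permutation test within groups p was 0.00104, 3.60e-04, 9.70e-04, 0.00375 and 0.0103, and adjusted over 12995 genes it was 0.161, 0.0829, 0.154, 0.312 and 0.481, so that none passed. Without the 2 mice farthest from the median of Ttr, control mice 2 and 3, r was between 0.63 and 0.82 for these 5. Without the 2 mice farthest from the mean of their own group, compound mouse 1 and 5XFAD mouse 5, a choice made after the data were seen, it was 0.62, 0.65, 0.67, 0.50 and 0.53. The lowest r was found for Aaed1 (-0.05), 1700040L02Rik (0.06) and Arhgap6 (0.21), and 4833427G06Rik (0.31) and 1700016K19Rik (0.44) stood between. Leaving out 1 mouse gave 0.52 to 0.86 for the 5 highest, while r fell to 0.24 for 1700016K19Rik and rose to 0.35 for 1700040L02Rik without compound mouse 1, and fell to 0.20 for 4833427G06Rik without 5XFAD mouse 4. Without compound mouse 1 and 5XFAD mouse 5 it was 0.52 for 4833427G06Rik and 0.36 for 1700040L02Rik, against 0.03 for Aaed1 and 0.16 for Arhgap6, so that the order of the members rests in part on these mice. The median over all other genes was -0.01. With Foxj1, r was 0.67 for Smim5 (rank correlation 0.57, permutation p = 0.00637, adjusted p = 0.610) and 0.52 for 1700026L06Rik (rank correlation 0.44, permutation p = 0.0257, adjusted p = 0.686), falling to 0.37 for the latter without the 2 mice farthest from the median of Foxj1, and 0.04 to 0.43 for the other 8. Without 5XFAD mouse 4 and control mouse 1, the farthest from their own group means in Foxj1, it was 0.48 and 0.46 for these 2 and -0.36 to 0.32 for the other 8. These points share library and depth within each mouse. Foxj1 rested on few estimated fragments per mouse, 3 to 25 in control, 3 to 20 in Hdac1 cKO, 3 to 27 in 5XFAD and 4 to 29 in compound mice. Counting error at this depth can lower r, so the r values with Foxj1 are not set against those with Ttr.

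**Figure D4:**
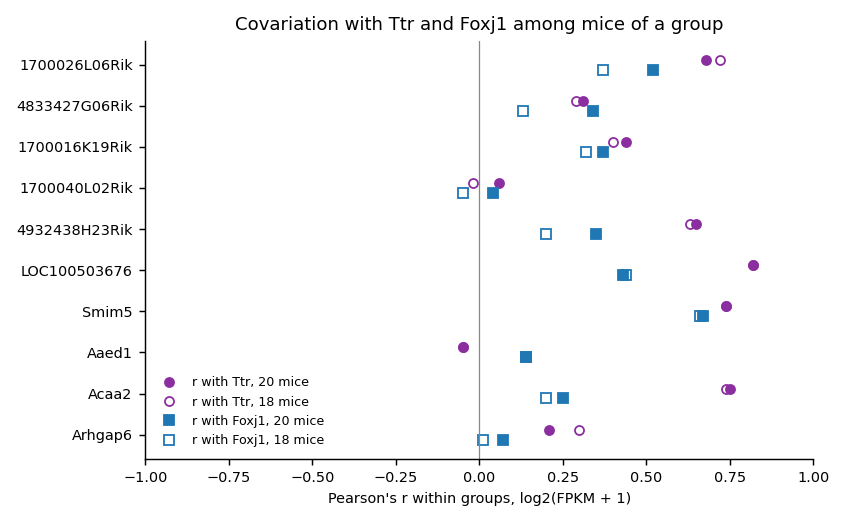
Pearson's r of each gene with Ttr (circles) and Foxj1 (squares) over log2(FPKM + 1) with group means removed; filled symbols use all 20 hippocampal mice and open symbols 18, without the 2 mice farthest from the median level of Ttr or Foxj1. LOC100503676, Acaa2 and Smim5 lie between 0.74 and 0.82 for Ttr, and Aaed1 and 1700040L02Rik near 0.

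The genes most like each member in this variation were ranked among 12986. Nearest to LOC100503676 were Sostdc1 (r = 0.83), a secreted antagonist of BMP and WNT signalling, and Kcnj13 (0.82), both on the choroid plexus list. For Acaa2 they were Igf2 (0.87), a growth factor of choroid plexus and meninges, and Cox8b (0.86), a subunit of cytochrome c oxidase. Smim5 lay nearest to Slc12a2 (0.86), the sodium-potassium-chloride cotransporter, and Lamp2 (0.85), a lysosomal membrane protein. For 1700026L06Rik the nearest were Catip (0.81), an actin regulator needed for ciliogenesis, and Rbbp9 (0.79), and for 4932438H23Rik they were Rhoa (0.87) and the ciliary gene Ccdc113 (0.84). The remaining members lay nearest to genes of no single kind: Pole4 and Trappc11 for 4833427G06Rik, Gnai1 and Lyrm5 for 1700016K19Rik, Ttll1 and Prkra for 1700040L02Rik, Ubr2 and Acaca for Aaed1, and Extl2 and Calb2 for Arhgap6, with r between 0.77 and 0.88. Among the 50 nearest genes, 16 of the 18 ranked choroid plexus genes appeared for Acaa2, 15 for LOC100503676, 7 for Smim5, 6 for 4932438H23Rik, 5 for 1700026L06Rik and 0 for the other 5. Of the 26 ranked cilia genes, 4 appeared for 1700026L06Rik, 2 for Acaa2 and 1 each for LOC100503676 and Smim5. How often these lists appear among the 50 nearest of other genes is not given, so nothing is read from the counts. The ranking used all 20 mice, compound mouse 1 and 5XFAD mouse 5 included. Among the members themselves, 39 of the 45 pairs had r above 0, with a median of 0.30 and a range of -0.26 to 0.75. The share over all pairs of genes is not given, so nothing is read from this count.

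A fit of all 20 hippocampal mice with the level of Ttr as a covariate was added after the data were seen. Its slope rests on the same variation within groups as the r values and is no second line of evidence. In Hdac1 cKO mice the log2 fold change of LOC100503676 went from -2.16 to -0.77 (standard error 0.37), that of 1700026L06Rik from -2.70 to -1.28 (0.61), that of Smim5 from -2.59 to -1.48 (0.40), that of 4932438H23Rik from -1.28 to -0.65 (0.30) and that of Acaa2 from -1.03 to -0.45 (0.21). It was nearly the same for Aaed1, at -1.02 and -1.06 (0.33), and for 1700040L02Rik, at -1.16 and -1.11 (0.33). Of the rest, 1700016K19Rik went from -1.10 to -0.60 (0.40), 4833427G06Rik from -1.50 to -1.16 (0.40) and Arhgap6 from -0.87 to -0.70 (0.32). Other differences came within about 1.5 standard errors of 0, such as that of 4932438H23Rik in compound mice, at -0.37 (0.28), and those of 1700026L06Rik and 1700016K19Rik in 5XFAD mice, at -0.66 (0.50) and -0.45 (0.32). Past the fold and unadjusted p thresholds, the fit of all 4 groups without a covariate had 10 members in Hdac1 cKO, 8 in 5XFAD and 10 in compound mice, where 2.66%, 1.29% and 2.21% of all genes tested were called lower. With Ttr there were 6, 5 and 6, where 1.21%, 0.994% and 1.43% of all genes were. With Foxj1 there were 10, 8 and 10, as without a covariate, where 1.73%, 1.27% and 2.01% of all genes were, and the values were -1.64 (0.54) for LOC100503676, -0.89 (0.27) for Acaa2, -1.92 (0.66) for 1700026L06Rik and -1.85 (0.40) for Smim5 in Hdac1 cKO mice. Since Foxj1 rests on few estimated fragments per mouse, its fit is not set against that with Ttr. Since Ttr differed between the groups, its share and that of the genotype cannot be told apart in a fit with Ttr as covariate. Nothing is read from the counts of members past the thresholds, with or without a covariate, because their hippocampal differences entered their choice.

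**Figure D5:**
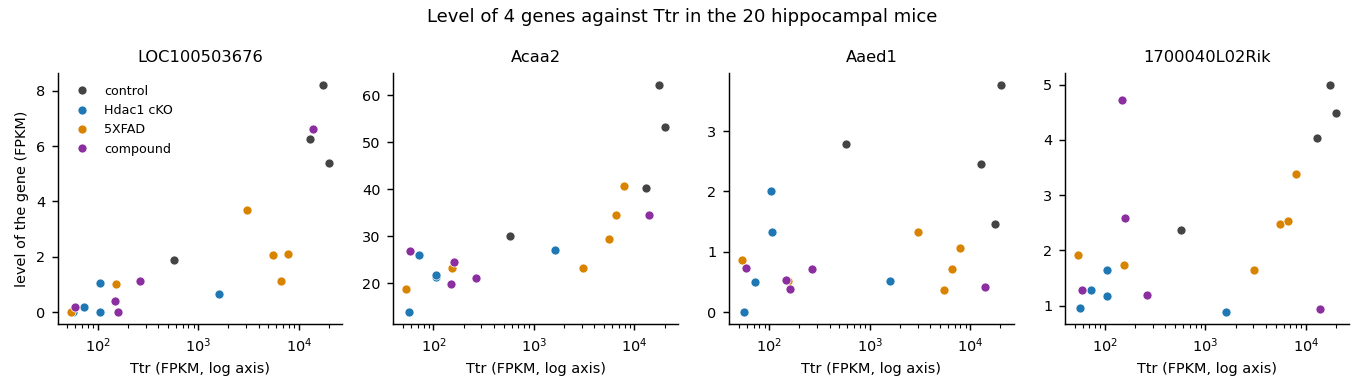
Level of 4 genes (FPKM, linear axis) against Ttr (FPKM, log axis), 1 point per hippocampal mouse, coloured by group. Compound mouse 1, at 13910 FPKM of Ttr, has 6.63 FPKM of LOC100503676 and 34.5 of Acaa2 but 0.418 of Aaed1 and 0.933 of 1700040L02Rik, while 5XFAD mouse 6, at 6617 FPKM of Ttr, has as little LOC100503676 (1.14) as compound mouse 4 (1.13), at 265 FPKM of Ttr.

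Relatives of the members were counted in the same comparisons. Of 20 other genes of mitochondrial beta-oxidation, the pathway of Acaa2, 1 was called lower in Hdac1 cKO mice and 0 in 5XFAD or compound mice. Their log2 fold changes lay below 0 for 17 of 20 in Hdac1 cKO, with a median of -0.24, beside 50.2% of all genes tested, and for 13 and 12 of 20 in 5XFAD and compound mice, with medians of -0.10 and -0.07. The gene was Cpt2, the inner-membrane carnitine palmitoyltransferase, at 3.70 ± 1.74 FPKM in control (SD, n = 4) against 1.45 ± 0.487 FPKM (SD, n = 5) after Hdac1 deletion (log2 fold change -0.86, adjusted p = 0.265 from limma). Of 8 peroxiredoxins and relatives of Aaed1, 0 were lower in any of the 3 comparisons and Prdx6 was higher in compound mice (0.77, adjusted p = 0.0870 from limma). Of 26 other Arhgap genes tested, Arhgap18 was called lower in Hdac1 cKO (-1.02, adjusted p = 0.0780 from limma) and in compound mice (-0.87, adjusted p = 0.170 from limma), while Arhgap22 was called higher in both (0.68 and 0.65, adjusted p = 0.325 and 0.281 from limma) and Arhgap9 in compound mice (0.65, adjusted p = 0.394 from limma). Of 14 other Smim genes, Smim22 was called lower in Hdac1 cKO mice, at 52.8 ± 40.8 FPKM in control (SD, n = 4) against 0.740 ± 0.718 FPKM (SD, n = 5). Other genes with a RIKEN clone symbol were called lower in 21 of 821 cases in Hdac1 cKO (2.56%, beside 2.87% of all genes), 19 of 817 in 5XFAD and 29 of 821 in compound mice, shares of 2.33% and 3.53%, beside 1.23% and 2.02% of all genes. The largest fall among them in Hdac1 cKO mice was that of 1500015O10Rik, now Ecrg4, a secreted peptide gene of the choroid plexus, at 273 ± 177 FPKM in control (SD, n = 4) against 12.1 ± 7.91 FPKM (SD, n = 5) after Hdac1 deletion.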

How the data were processed

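Hippocampal RNA was sequenced with a 3′ digital gene expression protocol and RNA of sorted GFAP+ nuclei with SMART-Seq v4. The authors aligned reads to mm9 with TopHat and computed FPKM with Cufflinks 2.0.0, and deposited 1 table of FPKM for 23951 genes per library. Of 34 listed samples, 27 had such a table and 7 were not analysed here. FPKM divides by transcript length, although 3′ reads do not scale with it, so levels were compared within a gene. In this work limma 3.58.1 (R 4.3.3) was fitted with trend and robust moderation to log2(FPKM + 1) of genes averaging 0.5 FPKM or more over the 2 groups compared, with Benjamini-Hochberg adjustment over all genes tested, after a test on simulated data. A gene was called lower or higher at a change of at least 1.5-fold with an unadjusted p under 0.05. Where the labels do not name separate animals, p-values measure only the spread between libraries.

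Members and gene lists were chosen with earlier results of these data known. Likeness to Ttr and Foxj1 was Pearson's r over values with group means removed, with 100000 two-sided permutations within groups; the planned adjustment over the 10 members was replaced by one over 12995 genes. Genes named are the members, Foxj1, Ttr, Hdac1, Thy1, Gfap, the 2 nearest genes of each member among those averaging 1 FPKM or more, and genes among the 2 largest called changes of a list in a comparison. Rbfox3, Recql5 and Hccs were named after their values were seen. Alternatives were another pseudocount, other filters, quantile and median scaling, limma without its trend and robust options, another call rule, the ratio of means, 1 fit of all hippocampal groups, a replicate block and the loss of each library. Current gene names and promoters are from RefSeq (GRCm38.p6).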

Additional observations from a re-analysis of the deposited data

Results flagged for a closer look

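Of 59 groups of 4 or more mice or libraries looked at for the members, Foxj1 and Ttr, 5 held a sample far from the others by Dixon's criterion at 95%, which chance gives in about 1 of 20 groups. 1700026L06Rik was at 1.46 FPKM in GFAP+ Hdac1 cKO library 4 and listed at 0 in the other 3. Foxj1 was at 1.10 FPKM in Hdac1 cKO mouse 5, with 0.258 to 0.433 FPKM in the other 4. Ttr was at 576 FPKM in control mouse 1, with 12903 to 20146 FPKM in the other 3, at 1608 FPKM in Hdac1 cKO mouse 5, with 56.5 to 106 FPKM in the other 4, and at 13910 FPKM in compound mouse 1, with 58.9 to 265 FPKM in the other 4.

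For 3 genes the Hdac1 cKO group was lower than control in hippocampus and higher in GFAP+ nuclei, with every sample on that side of its control mean. The log2 fold changes were -1.16 and 0.89 for 1700040L02Rik, -2.59 and 0.87 for Smim5, and -5.57 and 2.89 for Ttr. For 1700040L02Rik and Smim5 the hippocampal fall entered their choice, and in GFAP+ nuclei neither passed the adjustment over all genes. Their nuclear calls were lost in 4 and 5 of 7 cases of leaving out 1 library. There 1700040L02Rik also passed the filter through the Hdac1 cKO libraries, where it was high. The difference between the tissues was not tested, since the library chemistry differed with the tissue.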

How the results depend on the processing

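Against control the members kept their sign under the alternatives listed in the methods (550 of 550 values), which their choice fixes in part. Past the fold and unadjusted p thresholds, leaving out 1 mouse kept 10 members in Hdac1 cKO, 6 to 10 in 5XFAD and 7 to 10 in compound mice. In 5XFAD the replicate block kept 6, and a pseudocount of 0.1 and a fit of all 4 groups kept 8 each, and in compound mice the block kept 9. The number of genes called lower, the background beside which the members stand, moved more. By fold and unadjusted p it was 409 in Hdac1 cKO, 177 in 5XFAD, 290 in compound mice, 85 between compound and 5XFAD mice and 202 in GFAP+ nuclei. By an adjusted p under 0.05 alone it was 21, 6, 5, 1 and 0, of which 20, 3, 5, 1 and 0 also passed the fold. With the ratio of mean FPKM it was 292 in 5XFAD mice and 172 between compound and 5XFAD mice, and with a pseudocount of 0.1 it was 163 in the latter. Leaving out 1 library gave 329 to 566 in Hdac1 cKO, 158 to 360 in 5XFAD, 210 to 423 in compound mice, 80 to 149 between compound and 5XFAD mice and 157 to 323 in GFAP+ nuclei. The highest came without control mouse 1 in the 3 comparisons with control, without compound mouse 1, and without GFAP+ control library 4. The median r of the members with Foxj1 was 0.34, and 0.20 to 0.40 without 1 mouse. The cause of these shifts was not tested.

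In GFAP+ nuclei, where no member was called lower, leaving out 1 library turned the sign of 6 small differences: 1700016K19Rik ranged from -0.26 to 0.68, 4932438H23Rik from -0.39 to 0.30, LOC100503676 from -0.34 to 0.03, Aaed1 from -0.26 to 0.22, Acaa2 from -0.26 to 0.04 and Arhgap6 from -0.34 to 0.15. Same-numbered samples did not deviate together (r of -0.11 to 0.06 over 20 pairs), so the numbers do not pair them. With the replicate block 412, 210, 228, 89 and 170 genes were called lower in the 5 comparisons. Depth limits 4833427G06Rik and Aaed1 most, with at most 10 estimated fragments in a hippocampal library.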
